A study of Mus musculus with 8 samples.

Results

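The genes described here are the Wnt ligands and the receptors that bind them, taken from the count tables of 2 single-cell RNA libraries by symbol alone: Wnt followed by digits and an optional a or b, Fzd followed by digits, and the co-receptors Lrp5, Lrp6, Ror1, Ror2 and Ryk. The rule found 34 of 27998 gene rows in each table, 19 ligands, 10 Frizzled receptors and 5 co-receptors. The rule uses symbols and no measured value, although it was written with earlier results of these data known.

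Wnt proteins are lipid-modified secreted ligands that act mostly on neighbouring cells. When a ligand of the classical branch brings a Frizzled receptor together with LRP5 or LRP6, β-catenin escapes degradation and acts with TCF/LEF factors on target genes. Other ligands, WNT5A and WNT11 among them, act on Frizzleds with ROR1, ROR2 or RYK and steer cell shape and movement. In the early embryo the classical branch is needed to make mesoderm and has to be restrained for cardiac progenitors to form.

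The study asks how mouse embryonic stem cells (ESCs) that lack the TET proteins, enzymes that oxidise 5-methylcytosine, form cardiac cells. Both libraries come from an E14 ESC line with a green fluorescent NKX2-5 reporter, kept on mitomycin-treated fibroblast feeders and then grown without leukemia inhibitory factor or any other treatment. Cells spent the first days in hanging drops and the rest of the 5 days in non-adhesive dishes as embryoid bodies. One library is labelled wild type (WT) and the other Tet triple knockout (TKO). The labels name neither the deleted parts of the Tet genes nor the number of clones or of pooled embryoid bodies, nor whether the feeders were removed. With 1 library per group there is no replicate, so no p-value is given.

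In the WT-labelled library 4389 cells were kept, with 37503810 unique molecular identifiers (UMIs, counted molecules), and in the TKO-labelled library 3196 cells, with 33483998 UMIs, the medians being 7847 and 9678 UMIs per cell. Tet transcripts remained in the TKO-labelled library: Tet1 stood at 12.3 and 22.8 CPM (UMIs scaled to the same library total) in the WT- and TKO-labelled library, Tet2 at 6.83 and 4.60, and Tet3 at 29.1 and 20.3. Counts over whole genes cannot show a deleted exon, so they check neither label. Of the barcode sequences, 21 were named in both tables.

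The promoters of 3 Frizzled genes are shown because the libraries differ in enzymes that act on methylated CpGs, and because the Frizzleds moved largely together. Fzd7 and Fzd5 were much higher in the TKO-labelled library, and Fzd4 was the Frizzled with the lower count there. Each sequence is the 250 bases before the RefSeq start in GRCm38.p6, 5′ to 3′ on the gene's strand, with CpGs in capitals. Fzd7 lies at chr1:59481897-59482146 (plus strand, 17 CpGs), Fzd5 at chr1:64737751-64738000 (minus strand, 32 CpGs) and Fzd4 at chr7:89404116-89404365 (plus strand, 25 CpGs).
Fzd7: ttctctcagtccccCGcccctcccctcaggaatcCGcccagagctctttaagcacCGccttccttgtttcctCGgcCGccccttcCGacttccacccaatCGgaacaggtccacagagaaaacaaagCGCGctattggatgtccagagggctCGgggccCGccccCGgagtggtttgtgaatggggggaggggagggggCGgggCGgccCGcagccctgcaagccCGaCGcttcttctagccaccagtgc
Fzd5: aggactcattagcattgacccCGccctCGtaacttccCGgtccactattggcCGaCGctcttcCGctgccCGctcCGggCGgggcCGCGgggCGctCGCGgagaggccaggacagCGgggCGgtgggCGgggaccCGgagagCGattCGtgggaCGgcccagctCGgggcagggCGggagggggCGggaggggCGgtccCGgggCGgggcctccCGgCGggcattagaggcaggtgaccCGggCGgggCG
Fzd4: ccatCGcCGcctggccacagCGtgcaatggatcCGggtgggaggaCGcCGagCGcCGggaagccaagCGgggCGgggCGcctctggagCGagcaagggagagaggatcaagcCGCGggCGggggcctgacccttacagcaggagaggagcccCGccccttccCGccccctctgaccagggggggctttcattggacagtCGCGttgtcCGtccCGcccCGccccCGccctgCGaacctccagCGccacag
All 3 windows hold many CpGs. Only 6 of the 10 Frizzleds had a window, and Fzd2, Fzd3, Fzd6 and Fzd8 had none. Among the promoters listed by RefSeq, 27 windows of 24 members were found. Their median was 24 CpGs, against 6 over all 32851 windows of this length. The motif letters CTTTGAA or CTTTGAT, which TCF/LEF factors bind, occurred on either strand in 2 of the 27 member windows (7.41%), 1 of Wnt11 and 1 of Wnt5b, against 7.48% of all windows. The 5hmC pull-down libraries of the series were not analysed here, so nothing was measured at these CpGs.

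Over the whole libraries the summed ligand count was lower and the summed Frizzled count higher in TKO-labelled cells. Wnt2 and Wnt5a carry most of the ligand sum, and of the 11 ligands with enough UMIs to compare, 5 had a log2 ratio above 0 and 6 below. Ligand UMIs summed to 3275 (87.3 CPM) in WT-labelled and 1726 (51.6 CPM) in TKO-labelled cells. Frizzled UMIs summed to 4782 (127.5 CPM) and 8456 (252.5 CPM). Co-receptor UMIs summed to 4882 (130.2 CPM) and 3588 (107.2 CPM).

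A gene was called apart at a 2-fold or larger ratio and a sum of at least 10 UMIs over both libraries, a minimum that 26 of the 34 members passed. Of 11 ligands that passed, 2 were called higher in TKO-labelled cells and 4 lower, and of all 15 receptors and co-receptors 7 were higher and 0 lower. The same rule called 13.7% of all 15344 genes higher and 12.6% lower, 26.3% in either direction. The share called in either direction depends on depth. It was 52.9% of genes with 10 to 100 UMIs, 27.7% of those with 100 to 1000 and 10.1% of those with 1000 or more. The median log2 ratio, TKO over WT, was -0.67 for the ligands, or 0.42 when ligands of 1 UMI or more are let in, and 1.58 for the 10 Frizzleds, against 0.14 for all genes. The all-gene median was 0.01 with edgeR's TMM scaling and -0.02 with a median-of-ratios scaling, so log2 ratios read that much higher here than under those. A library sum cannot tell fewer cells of a kind from less RNA per cell, and the levels by marker-gated kind follow.

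**Figure D1:**
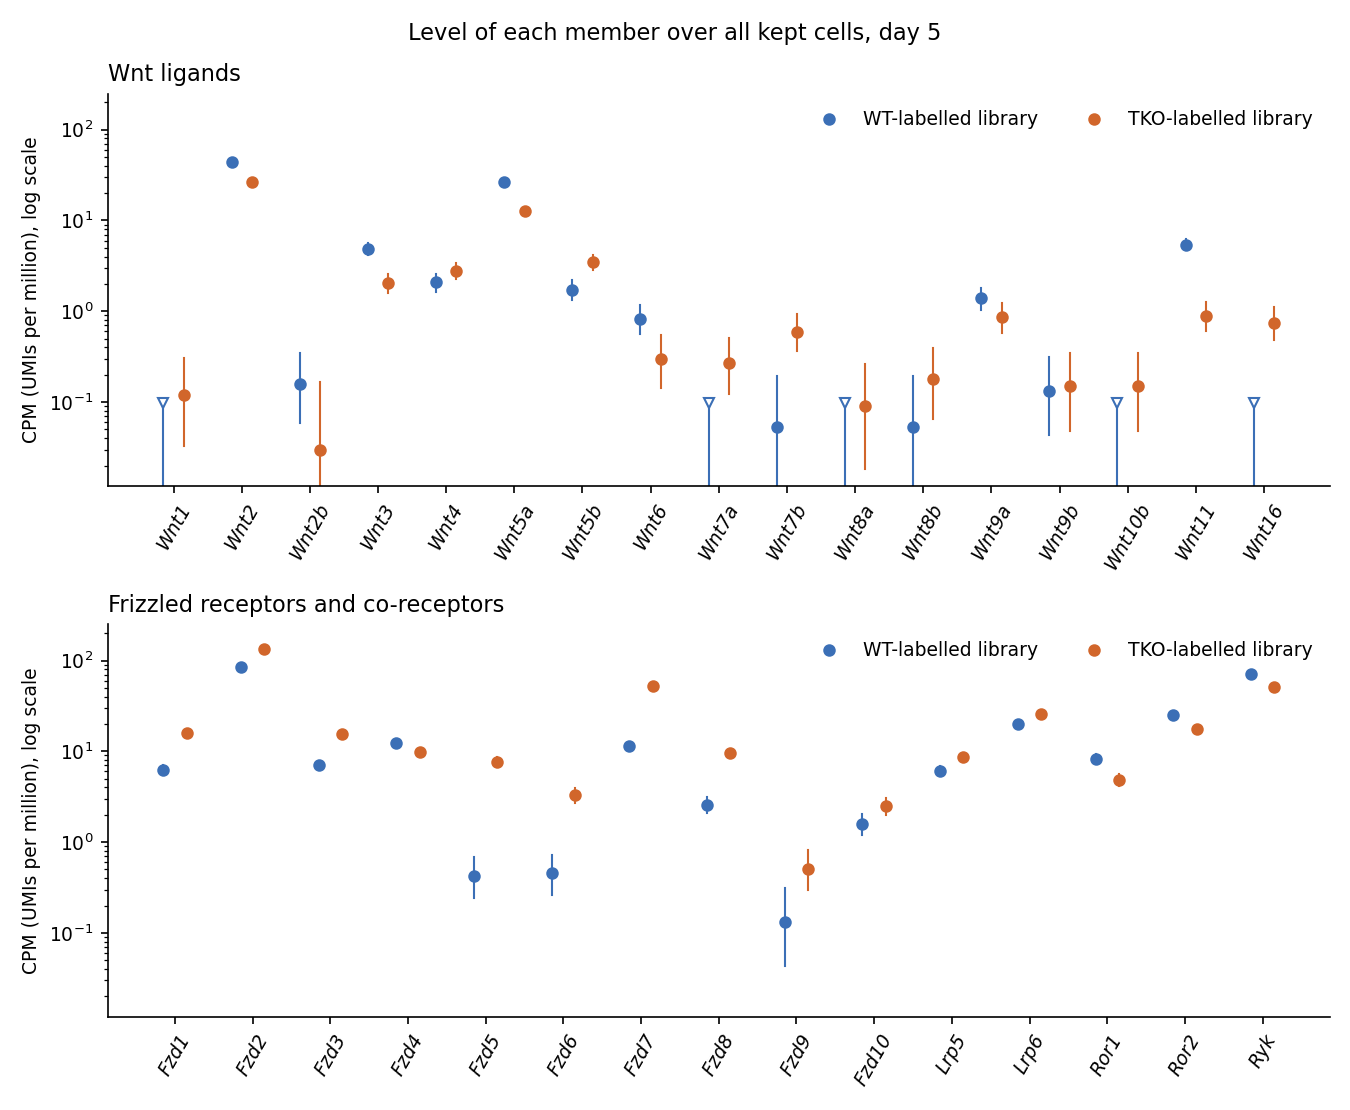
CPM of each member over all kept cells on a log axis, in the WT-labelled (blue) and the TKO-labelled (orange) library, with exact 95% Poisson intervals as bars. Open triangles are upper limits for ligands with 0 UMIs, and Wnt3a and Wnt10a, at 0 in both, are left out. Most Frizzleds are higher in orange and the ligands of highest count are higher in blue.

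WNT2, a ligand of the classical branch used in heart and lung mesoderm, gave the most ligand UMIs in both libraries. Wnt2 counted 1646 UMIs (43.9 CPM) in WT-labelled and 880 (26.3 CPM) in TKO-labelled cells, a ratio of 0.599 (95% interval 0.551 to 0.650). It therefore made up 50.3% of ligand UMIs in the one and 51.0% in the other, a share of counts and not of levels, which depend on transcript length and capture. All intervals cover counting error only.

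Wnt5a, the main ligand of the β-catenin-independent branch, counted 1002 UMIs (26.7 CPM) and 422 UMIs (12.6 CPM), 2.12-fold more in the former (1.89 to 2.38). Wnt11, which acts in the same branch and in heart formation, counted 203 and 30 UMIs, 6.04-fold more in WT-labelled cells (4.10 to 9.19). Wnt3, the ligand that starts the primitive streak, counted 183 and 68 UMIs, 2.40-fold more in WT-labelled cells (1.81 to 3.22). These ligands and Wnt6, with 31 and 10 UMIs and a ratio of 2.77 in the same direction (1.32 to 6.33), are the 4 called lower.

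Against that direction, Wnt16, a ligand known from somites and bone, had 0 UMIs in WT-labelled and 25 in TKO-labelled cells, at least 9.33-fold higher with the WT library set at 3 counts. Wnt7b, a ligand of many epithelia, had 2 and 20 UMIs, a ratio of 11.2 (2.72 to 98.8). Wnt5b, a close relative of Wnt5a, had 65 and 116 UMIs, a ratio of 2.00 (1.46 to 2.75) that lay just under the call. The annotated span of Wnt5b overlaps Fbxl14 by 4219 bases, Fbxl14 counted 315 and 551 UMIs, and whether counting used strand is not given in the sources used here. Wnt4, known for its role in kidney and gonad, had 78 and 93 UMIs, 12 of the 93 in 1 cell, and Wnt9a 52 and 29, with ratios of 1.34 (0.978 to 1.83) and 0.625 (0.382 to 1.00) whose intervals reach 1.

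The other ligands had at most 10 UMIs in both libraries together. Wnt7a had 0 and 9 UMIs, all 9 in 1 cell that reached no marker gate. The neural ligand Wnt1 had 0 and 4, Wnt10b 0 and 5, Wnt8a 0 and 3, and Wnt8b 2 and 6. Wnt2b had 6 and 1, and its span overlaps St7l by 4524 bases. Wnt9b, whose span overlaps that of Wnt3 by 1098 bases, had 5 in each and just reached the minimum of 10. Wnt3a, a ligand of the later streak and tail bud, and Wnt10a had none in either library. Of the 9 ligands listed in the β-catenin branch, only Wnt2 and Wnt3 passed 10 UMIs.

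Of the 10 Frizzleds, the receptors that hold the ligand, 9 had a ratio above 1 and 7 were called higher in the TKO-labelled library. Fzd5, a receptor known from eye and gut development, counted 16 UMIs (0.427 CPM) in WT-labelled and 254 (7.59 CPM) in TKO-labelled cells, a ratio of 17.8 (10.7 to 31.6). Fzd7, a receptor of pluripotent and streak-stage cells, counted 427 (11.4 CPM) and 1774 (53.0 CPM), a ratio of 4.65 (4.18 to 5.18). Fzd6, which with Fzd3 orients cells in planar polarity, counted 17 and 110 UMIs, a ratio of 7.25 (4.33 to 12.9).

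Smaller differences in the same direction were seen for Fzd8 with 96 and 318 UMIs (ratio 3.71), Fzd9 with 5 and 17 (3.81, interval 1.35 to 13.2), Fzd1 with 235 and 529 (2.52) and Fzd3 with 263 and 523 (2.23). Fzd2 carried most Frizzled UMIs, 3201 (85.4 CPM) and 4522 (135.0 CPM), and its ratio of 1.58 (1.51 to 1.66) stayed under the call. Fzd10, with 59 and 83 UMIs, had a ratio of 1.58 (1.12 to 2.24). Only Fzd4, known for its role in blood vessels, ran the other way, with 463 and 326 UMIs and a ratio of 0.789 (0.682 to 0.911), and its span overlaps Tmem135 by 338 bases.

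The mixture of receptors shifted with these differences. Fzd2 gave 66.9% of Frizzled UMIs in WT-labelled and 53.5% in TKO-labelled cells, Fzd7 8.93% and 21.0%, and Fzd4 9.68% and 3.86%. Fzd5 went from 0.335% to 3.00%. The ligand mixture moved less at its head and more below it, with Wnt5a at 30.6% and 24.5% of ligand UMIs, Wnt11 at 6.20% and 1.74%, and Wnt5b at 1.99% and 6.72%.

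None of the co-receptors was called, and their ratios ran from 0.585 to 1.40. Lrp5 and Lrp6, which carry the classical signal beside Frizzled, had ratios of 1.40 (1.18 to 1.68; 229 and 287 UMIs) and 1.27 (1.15 to 1.40; 759 and 857 UMIs). The receptors for the other branch ran the opposite way, Ror1 at 0.585 (0.481 to 0.709; 312 and 163 UMIs), Ror2 at 0.708 (0.637 to 0.786; 932 and 589 UMIs) and Ryk at 0.715 (0.672 to 0.760; 2650 and 1692 UMIs). Across 9 other settings of scaling, filter and depth, no sign changed among the 25 members followed except that of Wnt4, whose log2 ratio of 0.42 became -0.38 in cells thinned to 4000 UMIs.

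Detection per cell was compared at equal depth, with every cell thinned to 4000 UMIs and 372 WT-labelled and 190 TKO-labelled cells below that left out. At least 1 Wnt ligand was then seen in 26.9% of WT-labelled (25.5% to 28.3%) and 16.2% of TKO-labelled cells (14.9% to 17.6%). At least 1 Frizzled was seen in 37.9% (36.4% to 39.4%) and 58.7% (56.9% to 60.4%). Cells that showed 2 or more Frizzleds made up 4.90% and 18.2%. Without thinning a ligand was seen in 42.6% and 31.4% of cells, and a Frizzled in 58.0% and 81.6%. Erythroid-gated WT-labelled cells, which should use few of these genes, are set beside these shares and had a median depth of 9784 UMIs. After thinning, 5.64% of 408 such cells showed a ligand and 6.13% a Frizzled, and 15.9% and 15.4% of all 434 did without it. Of their 85 ligand UMIs 65 were of Wnt2, whose level there is described below. Whether these shares are background was not tested. A ligand and a Frizzled were seen in the same cell in 11.9% of WT-labelled and 8.98% of TKO-labelled cells at equal depth. A Frizzled was seen together with Lrp5 or Lrp6, the pair that receives the classical signal, in 4.18% and 8.25%. Lrp5 or Lrp6, with or without a Frizzled, was seen in 10.1% and 12.8%. Whether the joint shares exceed what the single shares imply was not tested.

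Possible sender and receiver cells were grouped by 13 marker gates of 8 genes each, none of them a member. RNA counts show neither secretion nor reception of a ligand, and 1 kind can be high in both ligands and Frizzleds. A cell was given the kind with the most markers seen, if 3 of 8 were reached, or 4 for lateral mesoderm, cardiac progenitor, cardiomyocyte and visceral endoderm. Gated kinds are ranges of marker counts rather than established cell types. Kinds with at least 50 cells are described, and the libraries share only lateral mesoderm (1241 WT-labelled and 274 TKO-labelled cells) and definitive endoderm (62 and 412). The WT-labelled library also filled the matrix mesenchyme (1283), erythroid (434) and endothelial (150) gates, and the TKO-labelled library the cardiac progenitor (331), pluripotent (257), head and paraxial mesoderm (221) and cardiomyocyte (52) gates. Ties held 522 and 138 cells, and 553 and 1415 cells (44.3% of the TKO-labelled library) reached no gate. In the WT-labelled library 47.2% of cells reached more than 1 gate, and in the TKO-labelled library 11.3%.

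In the WT-labelled library the ligands were counted mostly in mesoderm and mesenchyme. Lateral mesoderm held 38.9% of all ligand UMIs and matrix mesenchyme 32.4%, beside 28.3% and 29.2% of the cells, with summed levels of 113 CPM (107 to 119.5) and 103 CPM, against 8.40 CPM in endothelial-gated cells. Many of these cells reached several gates, and 55.9% of the lateral mesoderm cells also reached the matrix mesenchyme gate. The joint share was 71.3%. The 461 and 609 cells of these gates alone, 10.5% and 13.9% of the library, held 22.7% of all ligand UMIs. Cells of several gates stay in the total of that share, so it falls as they are set aside. Wnt2 stood at 56.9 CPM in matrix mesenchyme (52.4 to 61.7) and 50.9 CPM in lateral mesoderm (46.8 to 55.2), intervals that overlap. Wnt5a stood higher in lateral mesoderm (38.4 CPM, 34.9 to 42.2) than in matrix mesenchyme (29.0 CPM, 25.8 to 32.5). Wnt3 had the same order, at 7.19 and 4.16 CPM, and its intervals did not overlap. Matrix mesenchyme was gated on collagens and other matrix genes, which fibroblast feeders also use, and how many feeders the gate holds was not tested.

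Wnt2 was also counted in erythroid-gated cells. It had 65 UMIs in 55 of 434 such cells (14.9 CPM, 11.5 to 19.0), 34.0% of its level over the library, while Wnt5a had 8 UMIs there (6.88% of its level) and Fzd2 32 (8.61%). Wnt2 was not alone in this: Lrp5 stood at 56.4% of its library level, Lrp6 at 44.25%, Fzd3 at 36.0%, Wnt4 at 33.1% (3 UMIs) and Fzd7 at 32.3%. Ror1, at 8.28%, and Fzd1, at 7.33%, were low like Fzd2. Of the UMIs of Wnt2 and Wnt5a together, Wnt2 made up 89.0% in erythroid-gated cells (79.5% to 95.2%) and 62.2% over the library. Among 408 erythroid-gated cells that reached no other gate Wnt2 still had 55 UMIs in 47 cells, beside 93 UMIs of the mesoderm gene Hand1 (3.73% of its library level) and 14 of the collagen gene Col1a1 (2.34%). Of the 17 erythroid-gated TKO-labelled cells, 5 held 8 UMIs of Wnt2 and none held Fzd2 or Hand1. In WT-labelled endothelial-gated cells, with a median depth of 7306 UMIs against 9784, Wnt2 had 2 UMIs. After thinning, it was seen in 4.66% of 408 erythroid-gated and in 0 of 135 endothelial-gated cells, a count that allows a share of up to 2.22%.

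Among the named kinds of the TKO-labelled library, Wnt2 was counted mostly in the cardiac and lateral mesoderm gates. Of its 880 UMIs, 181 lay in ungated and 123 in tied cells. Cardiac progenitor cells, 10.4% of the library, held 24.3% of ligand UMIs, lateral mesoderm 16.7% and cardiomyocytes 4.87%, and 29.0% lay in ungated cells. Wnt2 stood at 138 CPM in cardiomyocyte-gated cells (60 UMIs, 105.5 to 178), 82.4 CPM in cardiac progenitors (73.5 to 92.2) and 63.7 CPM in lateral mesoderm (54.9 to 73.5). The cardiomyocyte interval lies above the others, and those of the other kinds meet at their ends. Wnt2 was nearly missing from the other named kinds, at 2.57 CPM in head and paraxial mesoderm, 1.05 in pluripotent and 0.595 in definitive endoderm cells.

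Wnt5a had another distribution in the TKO-labelled library. It stood at 46.1 CPM in cardiomyocytes (28.1 to 71.1), 20.1 in lateral mesoderm, 18.9 in head and paraxial mesoderm and 18.3 in cardiac progenitors, with overlapping intervals for the last 3 of these, and at 8.93 in definitive endoderm. As a share of the UMIs of both genes, Wnt2 made up 81.8% in cardiac progenitors (77.5% to 85.6%), 12.0% in head and paraxial mesoderm (4.53% to 24.3%) and 6.25% in definitive endoderm (1.31% to 17.2%). Of the ligands found higher in this library, Wnt16 had 10 of its 25 UMIs in head and paraxial mesoderm (4.29 CPM, against 0.595 in definitive endoderm), and Wnt7b 10 of its 20 in pluripotent cells (2.63 CPM). Wnt3 was left in lateral mesoderm (5.79 CPM, 17 UMIs) and pluripotent cells (3.95 CPM, 15 UMIs).

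**Figure D2:**
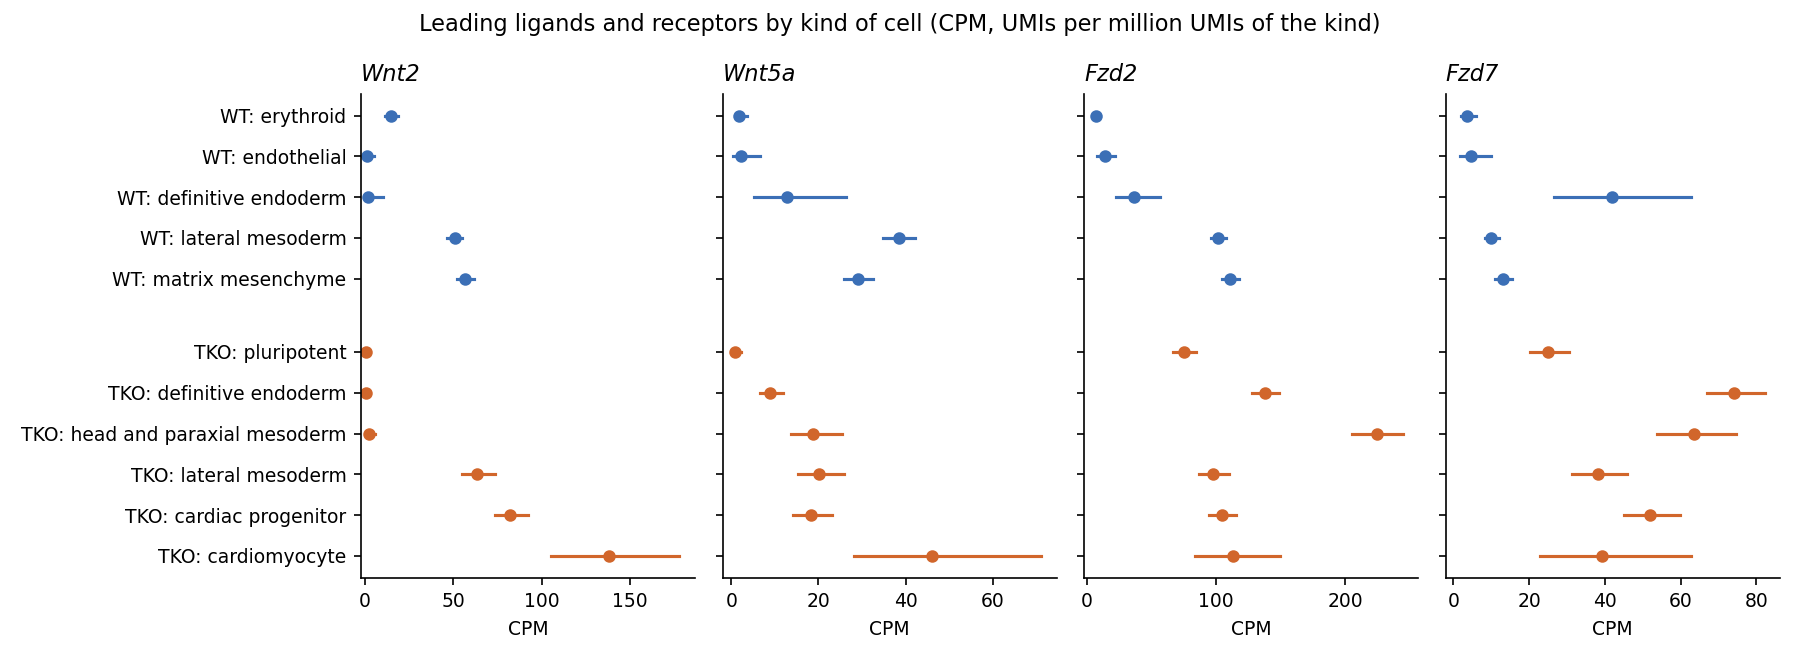
CPM of Wnt2, Wnt5a, Fzd2 and Fzd7 in each marker-gated kind of at least 50 cells, WT-labelled in blue and TKO-labelled in orange, with exact 95% Poisson intervals as bars; each panel has its own axis. Wnt2 is high in lateral mesoderm, matrix mesenchyme and the cardiac kinds and near 0 in head and paraxial mesoderm, endoderm and pluripotent cells, whereas Fzd7 has its highest value in definitive endoderm of either library.

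Receptors were spread more evenly over the kinds than ligands. In the TKO-labelled library the summed Frizzled level ran from 149 CPM in pluripotent cells through 195, 207 and 221 in lateral mesoderm, cardiomyocytes and cardiac progenitors to 279 in definitive endoderm and 366 in head and paraxial mesoderm. The 3 middle kinds had overlapping intervals, and the 2 highest did not overlap each other. In the WT-labelled library it ran from 18.8 CPM in erythroid and 56.5 in endothelial cells to 98.3 in definitive endoderm, 147 in lateral mesoderm and 156 in matrix mesenchyme, and the last pair overlapped. Ungated TKO-labelled cells had 293 CPM and held 42.6% of the library's Frizzled UMIs, the largest part of any kind.

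Single Frizzleds differed in level between the named kinds, though Fzd2 and Fzd7 were counted in all of them. In the TKO-labelled library Fzd2 was highest in head and paraxial mesoderm at 224 CPM (205 to 244), above definitive endoderm at 138. Fzd5 was highest in definitive endoderm at 17.9 CPM (14.4 to 22.0), above pluripotent cells at 10.5 (7.52 to 14.3), and 2.39 in lateral mesoderm. Fzd7 reached 74.2 CPM in definitive endoderm (66.9 to 82.1) and 63.5 in head and paraxial mesoderm, which overlap, and was lower in pluripotent cells, with an interval of 20.2 to 30.6.

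Ror2 was likewise highest in TKO-labelled definitive endoderm, at 30.8 CPM (26.1 to 36.0), against 15.9 in head and paraxial mesoderm. In the WT-labelled library Fzd7 was also highest in definitive endoderm, at 41.9 CPM from 23 UMIs (26.6 to 62.9), against 13.1 in matrix mesenchyme. Endothelial cells there had the highest Fzd10, at 9.16 CPM from 12 UMIs, and Fzd4, at 18.3 CPM, the latter overlapping matrix mesenchyme at 13.6. In lateral mesoderm Fzd10 stood at 1.78 CPM, below the endothelial interval of 4.73 to 16.0.

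**Figure D3:**
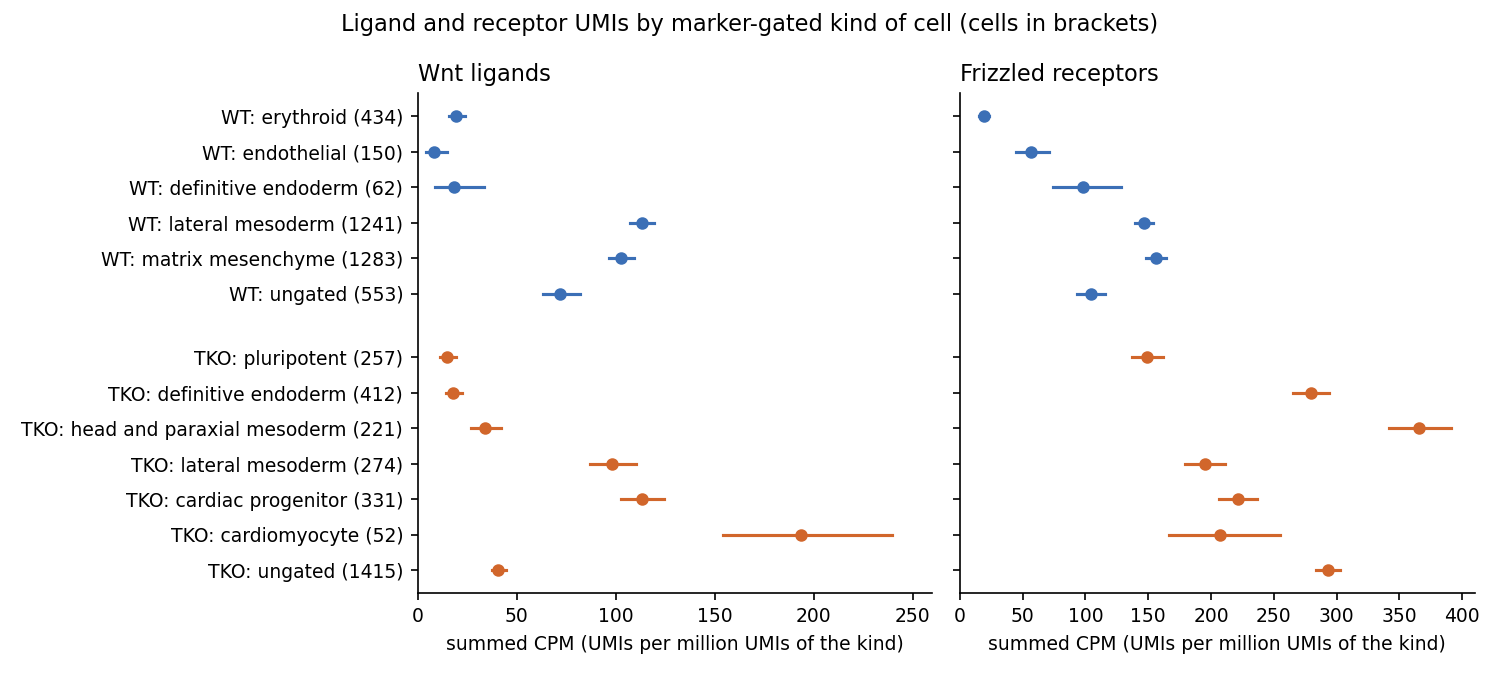
Summed CPM of the 19 ligands and of the 10 Frizzleds in each marker-gated kind, with exact 95% Poisson intervals as bars and the number of cells in brackets. Ligand levels are high in lateral mesoderm, matrix mesenchyme and the cardiac kinds and low in the other named kinds, head and paraxial mesoderm included, while Frizzled levels are highest in TKO-labelled head and paraxial mesoderm.

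Within lateral mesoderm, the larger gate that both libraries fill, the libraries were compared under the same gate. The median cell of either library had 5 of the 8 lateral mesoderm markers, and 29.3% of WT-labelled and 43.4% of TKO-labelled cells lay at the minimum of 4. Which markers were seen differed: Hand1 in 99.1% of WT-labelled and 63.9% of TKO-labelled cells of the gate, and Pitx1 in 43.8% and 4.38%. The reverse held for Foxf1, at 43.9% and 77.0%, and Tbx3, at 26.0% and 52.9%. The cells were not alike in other markers: 55.9% of the WT-labelled cells also reached the matrix mesenchyme gate, against 1.46% of the TKO-labelled cells, and 5.48% against 15.0% reached the cardiac progenitor gate. The main ratios are therefore also given for the 461 and 215 cells that reached this gate alone. The part of the gate's own markers in the ratios was not tested.

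Fzd7 stood at 10.0 CPM in WT-labelled and 38.2 CPM in TKO-labelled lateral mesoderm, a ratio of 3.80 (2.90 to 4.99) near that over the libraries, and 2.68 (1.82 to 4.01) in cells of this gate alone. Fzd1 (1.96, 1.36 to 2.78) and Fzd3 (1.75, 1.16 to 2.62) were also above 1, with ratios of 1.78 (1.09 to 2.92) and 1.45 (0.802 to 2.59) in cells of this gate alone. Fzd2, in contrast, stood at 101.6 and 97.8 CPM, a ratio of 0.962 (0.842 to 1.10), below its library ratio of 1.58, and 1.22 (1.02 to 1.47) in cells of this gate alone. Fzd4 had a ratio of 1.30 (0.933 to 1.80), and 1.72 (1.12 to 2.66) in cells of this gate alone, and Fzd5 (3 and 7 UMIs) and Fzd6 (4 and 6 UMIs) were too rare for more than their direction, with ratios of 8.96 (2.04 to 53.7) and 5.76 (1.37 to 27.7).

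Wnt2 changed sides within the gate. It stood at 50.9 CPM in WT-labelled and 63.7 CPM in TKO-labelled lateral mesoderm, a ratio of 1.25 (1.06 to 1.48), whereas over the libraries it was 0.599. In cells of this gate alone the ratio was 2.09 (1.63 to 2.70), and with the gate minimum raised to 5 markers it was 1.13 (0.908 to 1.39), whose interval reaches 1. Wnt5a stayed lower in the TKO-labelled cells at 38.4 and 20.1 CPM, a ratio of 0.523 (0.392 to 0.688), and 0.549 (0.378 to 0.784) in cells of this gate alone. Wnt11 stood at 7.01 and 2.04 CPM (79 and 6 UMIs), a ratio of 0.292 (0.104 to 0.663). That ratio was 0.496 (0.143 to 1.40) in cells of this gate alone and 0.538 (0.140 to 1.48) with gates read at 4000 UMIs, and both intervals reach 1.

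Of the receptors of the β-catenin-independent branch, Ror1 and Ror2 were called lower in TKO-labelled lateral mesoderm and Ryk was not called. Ror1 stood at 9.14 and 2.04 CPM (103 and 6 UMIs), a ratio of 0.224 (0.0802 to 0.504), and 0.241 (0.0460 to 0.807) in cells of this gate alone. Ror2 stood at 25.5 and 12.3 CPM, a ratio of 0.481 (0.331 to 0.682) that was 0.569 (0.357 to 0.883), no longer called, in cells of this gate alone. Ryk stood at 82.5 and 64.4 CPM, a ratio of 0.781 (0.664 to 0.914) that was 0.949 (0.768 to 1.17) in cells of this gate alone. In all, 2 of 8 ligands were called lower and 0 higher, Wnt11 and Wnt4 (27 and 3 UMIs), and of 14 receptors 3 were called higher and 2 lower, against 8.67% of all genes higher and 9.96% lower in this gate. For the call a count of 0 was set at 3 UMIs. That left Wnt6 uncalled in this gate (15 and 0 UMIs, at least 1.30-fold lower). It also left Wnt4 uncalled with the minimum raised (18 and 0 UMIs), although its count there was 0 in TKO-labelled cells. The ligand calls also depend on the gate setting. Wnt4 was not called with the minimum lowered (0.858) or with gates read at 4000 UMIs (0.864), and Wnt11 not with the latter. Wnt2 was called higher in cells of this gate alone.

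**Figure D4:**
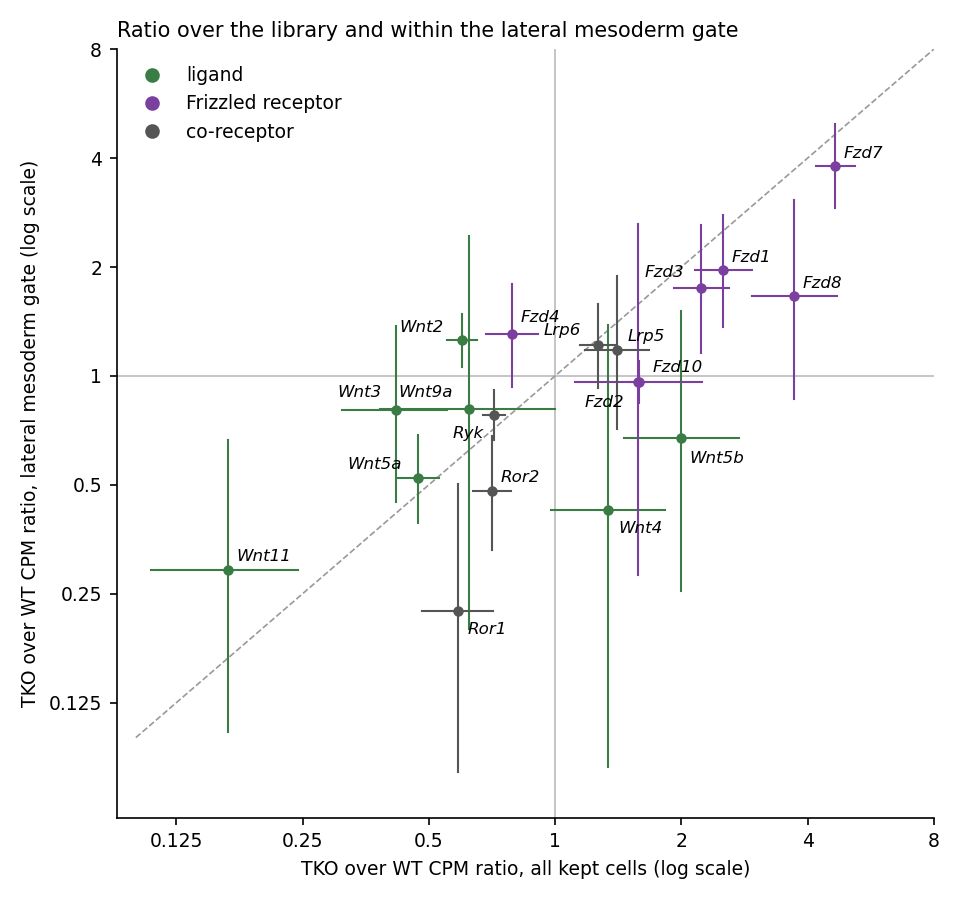
TKO over WT ratio of CPM within the lateral mesoderm gate (vertical) against that over all kept cells (horizontal), on log axes with 95% intervals as bars, for members with at least 20 UMIs in the gate; the dashed line marks equal ratios. Fzd7 lies near the line, Wnt2 above 1 on the vertical axis only, and Fzd2 at about 1 within the gate.

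In definitive endoderm, with only 62 WT-labelled cells, 5 of 13 receptors were called higher in the TKO-labelled library and 0 lower, against 12.4% and 7.69% of all genes. Fzd2 stood at 36.4 and 137.7 CPM (20 and 694 UMIs), a ratio of 3.78 (2.43 to 6.23), an interval wholly above that of its ratio in lateral mesoderm. Fzd5 had 0 and 90 UMIs, at least 3.27-fold higher, and Fzd7 a ratio of 1.77 (1.16 to 2.83). Fzd1, Fzd4 and Fzd8 were called on 1, 1 and 2 WT-labelled UMIs, with ratios of 6.54 (1.13 to 262), 3.05 (0.504 to 124.7) and 3.00 (0.791 to 25.4). The median WT-labelled cell of this gate also had 2 of 8 visceral endoderm markers, and the median TKO-labelled cell 0. Of the gate's own markers, Pyy was seen in 61.3% of WT-labelled and 3.2% of TKO-labelled cells and Trh in 43.55% and 93.2%. Foxa1 was alike, at 51.6% and 50.2%. At the minimum of 3 markers lay 53.2% of WT-labelled and 57.0% of TKO-labelled cells. The part of these differences in the ratios was not tested.

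Further genes of the pathway were read from lists for each step, beside 13.7% of all genes called higher and 12.6% lower. The shares called for secretion (1 of 3), receptor turnover (1 of 8) and nuclear effectors (2 of 8) are near that background. For ligand secretion, Porcn, the enzyme that lipidates Wnt proteins, had 104 and 291 UMIs, 3.13-fold more in TKO-labelled cells (2.50 to 3.96), the 1 of 3 genes called, and Wls, the carrier that takes them to the surface, had a ratio of 1.20. Among R-spondins, which keep Frizzleds at the surface, and the ligases that remove them, 1 of 8 was called: the ligase Rnf43 (19 and 56 UMIs, ratio 3.30, 1.93 to 5.88). Rspo3 and its receptor Lgr4 were under 1, at 0.600 and 0.566.

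The list of secreted and membrane inhibitors had the largest share of calls, with 7 higher and 3 lower of 12, and summed levels of 90.4 and 282 CPM. Its membrane proteins are Kremen1, not called, Kremen2, called higher on 2 and 25 UMIs, and Apcdd1, called lower on 12 and 2. Wif1 was called higher on 5 and 11 UMIs, with an interval of 0.789 to 9.05. Apcdd1 and Wif1 lie under the 20 UMIs set for naming. The Frizzled decoy Sfrp5 had 153 and 892 UMIs (ratio 6.53, 5.50 to 7.80) and Cer1, an inhibitor made by anterior endoderm, 18 and 234 (a ratio of 14.6). Dkk1 (345 and 1409 UMIs, ratio 4.57), Sfrp1 (1802 and 4864, 3.02) and Frzb (331 and 1470, 4.97), named after their values were seen, hold most of the sum. Dkk2 went the other way, with 180 and 7 UMIs, 23.0-fold higher in the WT-labelled library. Of the cytoplasmic cascade, 0 of 11 genes were called, with β-catenin and Dvl genes on that list and a median log2 ratio of 0.30 against 0.14 for all genes.

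Of 8 nuclear effectors 1 was higher, Lef1 (343 and 780 UMIs, ratio 2.55, 2.24 to 2.90), and 1 lower, Pygo1 (244 and 61 UMIs, 3.57-fold higher in the WT-labelled library). Among 10 planar polarity partners, 3 were higher, Celsr2 (20 and 218 UMIs, ratio 12.2, 7.71 to 20.4), Celsr1 (4.66) and Vangl2 (2.16), and Prickle2 was lower. Of 9 target and feedback genes that passed 10 UMIs, 3 were higher, Sp8 (5 and 68 UMIs, ratio 15.2, 6.22 to 48.4), T (18 and 338 UMIs, ratio 21.0, 13.1 to 35.9) and Sp5 (35 and 295 UMIs, ratio 9.44, 6.64 to 13.8), and Nkd1 was lower (1279 and 418 UMIs, 2.73-fold higher in the WT-labelled library). The rest of these target genes were not called, with ratios of 0.509 for Cdx2, 0.694 for Nkd2, 1.29 for Axin2 (1.07 to 1.56), 1.34 for Ccnd1 and 1.44 for Tbx6. Axin2, Ccnd1 and Tbx6 are named although they lie at neither end of their list. T and Cer1 are also markers in the primitive streak and definitive endoderm gates, and 412 TKO-labelled against 62 WT-labelled cells fell in the latter.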

How the data were processed

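The 2 single-cell RNA libraries, WT-labelled and TKO-labelled at day 5, were analysed from the counts of unique molecular identifiers (UMIs) per gene and cell that the authors deposited as raw tables. Seurat 3, mm10, BSMAP, MACS2 and DESeq2 are named without a role per the submitters' processing notes, and for aligner, counter, chemistry and cell filter nothing is given in the sources used here. The header of the TKO-labelled table named 1 barcode more than its rows hold, so cell order rather than names defined its cells, and no barcode entered a result. Of the row names, 116 differed between the tables, and gene rows were matched by position under the names of the WT-labelled table. The member symbols were the same in both. The 6 libraries of 5hmC pull-down were not analysed here.

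Cells under 500 genes or 1000 UMIs, or over 15% mitochondrial UMIs, were dropped (Python 3.11.15, numpy 2.4.6, scipy 1.17.1). Scrublet, run through scanpy 1.11.5, marked and removed only 3 and 1 cells and had therefore not worked, so doublets remain. UMIs were summed over cells and given as CPM with exact 95% Poisson intervals, and ratios carry exact binomial-based intervals. All cover counting error only, and p-values cannot be had from 1 library per group. Log2 ratios used a prior of 0.5 counts, and calls set a count of 0 at 3 counts. Scripts were checked on simulated data, and edgeR 4.0.16 in R 4.3.3 gave the alternative TMM factors. Members and lists were chosen with earlier results of these data known. Every member is reported, and of each pathway list, genes are named from the 3 at either end of the ratio with at least 20 UMIs, with any others marked as such.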

Additional observations from a re-analysis of the deposited data

How the results depend on the processing

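The receptor count was 5 to 7 higher and 0 lower under each scaling, filter and threshold tried, and the 20 of 225 recomputed member values that left their counting interval kept their direction, apart from the sign of Wnt4 given above. Ligand calls depended on the UMI minimum: 0 were higher at 50 UMIs and 4 at 1 UMI, where the ligand median turned to 0.42, since ligands of 1 to 9 UMIs then enter. At a 3-fold threshold 1 ligand was lower. Gate settings moved the share of ligand UMIs in the mesoderm, mesenchyme and cardiac gates described above. It was 71.3% for WT-labelled lateral mesoderm and matrix mesenchyme and 45.9% for the TKO-labelled cardiac and lateral gates. With the minimum raised by 1, the WT-labelled and TKO-labelled shares were 64.9% and 28.0%. They were 22.7% and 31.4% with cells of more than 1 gate taken out of the gates but kept in the total. With gates read at 4000 UMIs they were 60.2% and 23.7%. With the minimum lowered by 1, an alternative chosen after seeing the data, they were 73.2% and 54.2%. The summed Frizzled level in WT-labelled lateral mesoderm was 128 CPM without cells of more than 1 gate and 157 CPM with gates read at 4000 UMIs, and with the latter it was 179 CPM in TKO-labelled lateral mesoderm and 259 CPM in TKO-labelled definitive endoderm. Within lateral mesoderm, cells of that gate alone gave ratios of 2.09 for Wnt2, 1.22 for Fzd2, 2.68 for Fzd7 and 0.949 for Ryk. Gates read at 4000 UMIs gave 1.58 for Wnt2 and 2.81 for Fzd7, and the raised minimum gave 0.379 for Wnt5a. The causes were not tested. At 2500 UMIs per cell a ligand was seen in 18.9% of WT-labelled and 11.1% of TKO-labelled cells and a Frizzled in 25.8% and 44.6%. Definitive endoderm had under 50 WT-labelled cells with the minimum raised or gates read at 4000 UMIs and gave no value there. Depth limits the ligands under 10 UMIs, for which no ratio is read. No paired analysis was possible because each single-cell group is 1 library, and the 5hmC pull-downs that share replicate numbers were not analysed here.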
